A study of Mus musculus with 8 samples.

Results

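Granulosa cells of mice with and without the progesterone receptor (PGR, encoded by Pgr) were compared by their accessible chromatin after hCG, in 4 of the 8 ATAC-seq libraries of the series. ATAC-seq marks open chromatin by where the transposase Tn5 inserts. The 2 wild-type libraries (WT 1 and WT 2) and the 2 PR knockout libraries (KO 1 and KO 2) carried the same strain label, C.129S7(B6)-Pgrtm1Bwo/OmcJ, the name of a congenic line with a targeted Pgr allele. All donors were 21 days old, were primed with 5 IU eCG, received 5 IU hCG after 46 h and were tagged as 6 h post-hCG, although the source name calls these cells pre-ovulatory. Each replicate pooled 2 to 3 mice, and the label names a targeted allele with no Cre driver. A further 2 libraries of wild-type CBA x C57BL/6 F1 mice, titled hCG (their time tag reads 0 h, which disagrees with the title and with the peri-ovulatory source name), were used only as an outside reference.

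All peaks on chromosomes 1 to 19 and X were merged where they shared 1 bp or more, which gave 91502 regions. A region counted as held by each library with a peak there. Regions held by both WT libraries and neither KO library are called WT-only, the reverse KO-only, and regions held by all 4 are called shared. The comparison thus turned on 11048 WT-only regions (12.1% of all), 77 KO-only regions (0.0842%) and 48754 shared regions.

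Granulosa cells surround the oocyte in the follicle. The luteinising hormone surge, which hCG replaces, induces PGR in granulosa cells of follicles about to rupture, and mice without PGR luteinise their follicles but fail to ovulate. PGR is a ligand-activated transcription factor that binds a palindromic hormone response element shared with the glucocorticoid and mineralocorticoid receptors. At distal sites it works together with other factors bound to open chromatin.

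The peak lists of the groups differed in size. WT 1 held 80137 and WT 2 held 84313 peak intervals, against 58851 in KO 1 and 55654 in KO 2 (82225 ± 2953 against 57253 ± 2261, SD, n = 2 and 2; exact two-sided permutation p = 0.333, the smallest p that 2 against 2 allows). The peaks covered 43.8 ± 0.19 Mb in WT and 35.3 ± 5.13 Mb in KO, and their median width was 410 ± 21.9 bp in WT and 504 ± 67.9 bp in KO (exact permutation p = 0.333 for both). The difference in covered length, 8.49 Mb, was 4.87 Mb without KO 2 and 12.1 Mb without KO 1, and that in median width, -94.5 bp, was -142.5 and -46.5 bp. Read totals are not in these lists, so depth is unknown, and a longer list cannot be told apart from a more sensitive library. The main counts of WT-only and KO-only regions are therefore also given with the same number of peaks per list, the 55654 of best fold enrichment, 55654 being the length of the shortest list. Of 7 granulosa markers with a start in the promoter table, 5 had a promoter peak in all 4 libraries (Foxl2, Fshr, Amhr2, Cyp19a1 and Esr2). Inha had one in 2 libraries and Nr5a2 in none. None of 3 leukocyte, 3 endothelial and 4 oocyte markers had a promoter peak in any library, nor had the theca marker Insl3 or the stromal marker Pdgfra. The theca marker Ptch1 and the stromal markers Acta2 and Tcf21 had one in all 4, as did 10327 of all 17274 genes with a start.

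The promoter sequences that follow belong to the genes on which later results turn, read 5′ to 3′ on the gene's strand as the 250 bases before the RefSeq start (GRCm38.p6, the assembly that mm10 stands for). Capitals mark matches to the motifs searched, which are listed with the promoter results. Pgr, the targeted gene, has its first start on the + strand, after chr9:8899583-8899832.

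Pgr: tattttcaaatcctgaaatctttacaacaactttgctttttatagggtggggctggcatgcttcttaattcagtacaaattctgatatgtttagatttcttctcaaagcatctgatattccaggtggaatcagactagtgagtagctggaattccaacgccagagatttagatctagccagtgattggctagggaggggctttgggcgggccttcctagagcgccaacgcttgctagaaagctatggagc

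Raet1e (chr10:22158319-22158568, + strand), Cfap97d2 (chr8:13705639-13705888, + strand) and Kcnip3 (chr2:127522095-127522344, − strand) had the best-ranked promoter peaks among WT-only regions.

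Raet1e: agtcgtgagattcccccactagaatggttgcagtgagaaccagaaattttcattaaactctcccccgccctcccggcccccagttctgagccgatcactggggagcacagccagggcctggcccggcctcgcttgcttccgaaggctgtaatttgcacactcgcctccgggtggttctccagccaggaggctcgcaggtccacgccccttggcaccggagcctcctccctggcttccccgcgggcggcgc

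Cfap97d2: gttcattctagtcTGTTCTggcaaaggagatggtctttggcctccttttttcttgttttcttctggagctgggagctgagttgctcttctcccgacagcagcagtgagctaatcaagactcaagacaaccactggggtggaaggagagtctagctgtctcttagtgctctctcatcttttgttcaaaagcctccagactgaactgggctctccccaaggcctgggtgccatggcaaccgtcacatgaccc

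Kcnip3: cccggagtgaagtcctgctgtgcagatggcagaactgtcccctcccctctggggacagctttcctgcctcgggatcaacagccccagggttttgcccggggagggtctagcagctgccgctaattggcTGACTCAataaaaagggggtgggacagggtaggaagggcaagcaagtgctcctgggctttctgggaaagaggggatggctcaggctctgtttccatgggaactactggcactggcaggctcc

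Jag2 (chr12:112929496-112929745, − strand) and Esr2 (chr12:76177260-76177509, − strand) had promoter peaks whose widths did not overlap between the groups.

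Jag2: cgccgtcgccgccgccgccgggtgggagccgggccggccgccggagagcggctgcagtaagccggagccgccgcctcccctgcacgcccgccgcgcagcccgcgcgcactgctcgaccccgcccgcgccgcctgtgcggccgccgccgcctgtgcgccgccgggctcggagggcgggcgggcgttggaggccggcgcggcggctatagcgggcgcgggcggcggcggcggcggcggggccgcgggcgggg

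Esr2: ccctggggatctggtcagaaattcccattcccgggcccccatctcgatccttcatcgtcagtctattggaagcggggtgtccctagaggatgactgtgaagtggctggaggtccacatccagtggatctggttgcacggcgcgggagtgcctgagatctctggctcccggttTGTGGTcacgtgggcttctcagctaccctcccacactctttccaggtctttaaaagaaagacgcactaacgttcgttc

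The Pgr locus itself was open in both genotypes. The promoter peak covered 2301 bp in WT 1 and 2206 bp in WT 2 as a single interval. In the knockout it was 2 intervals, of 1277 and 722 bp in KO 1 and of 1270 and 484 bp in KO 2. The break began 1213 bases past the start in both KO libraries and was 272 bp long in KO 1 and 394 bp in KO 2. Such a break, with 2 or more intervals in both KO libraries and 1 in both WT libraries, was seen at 71 regions (0.146% of shared regions), and the reverse at 420 regions (0.862%). At equal numbers of peaks the order turned, with 71 regions split in KO and 49 split in WT. Without KO 1 it turned too, with 409 split in KO and 311 in WT. The 71 rose to 161 without WT 2 and 146 without KO 2, and the 420 rose to 999 without WT 2, 954 without WT 1 and 671 without KO 2.

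Beside its promoter, Pgr differed in smaller peaks of both kinds. A peak of 164 bp in WT 1 and 161 bp in WT 2, 4.41 kb upstream of the start, and another of 148 and 152 bp, 10.7 kb downstream, were WT-only. Neither kept that state at equal numbers of peaks, and neither F1 hCG library held them. Their rank percentiles in the WT lists ran from 12.5 to 32.8. A KO-only region lay 28.7 kb upstream (chr9:8871011-8871322, 232 bp in KO 1 and 300 bp in KO 2), and it was the only KO-only region on chromosome 9. Its fold enrichment was 3.27 in KO 1 and 3.46 in KO 2, at the 3.26th and 3.09th percentiles of those lists, and neither F1 hCG library held it. At equal numbers Pgr and its 10 kb flanks, which do not reach this region, had 0 WT-only and 1 KO-only of 3 regions. The next region upstream covered 724 bp in WT 1, 1086 bp in WT 2, 1403 bp in KO 1 and 1823 bp in KO 2.

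WT-only regions made up 12.1% of all 91502 regions, and KO-only regions 0.0842%. The remaining 31623 regions were held in other combinations, 10170 of them by WT 2 alone, 7034 by both WT libraries and KO 1, and 6659 by WT 1 alone. With the same number of peaks per list 3066 of 72287 regions were WT-only (4.24%) and 3007 were KO-only (4.16%), a balance that lists of equal length largely fix by construction. Of these 3007 KO-only regions, 2945 (97.9%) had a peak in at least 1 full WT list, and 2717 (90.4%) in both. This follows largely from the shortening, since it removed peaks mainly from the WT lists. Without WT 1, WT 2, KO 1 or KO 2 the WT-only count was 21381, 17800, 18285 and 14609, and the KO-only count 277, 460, 517 and 574.

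**Figure D1:**
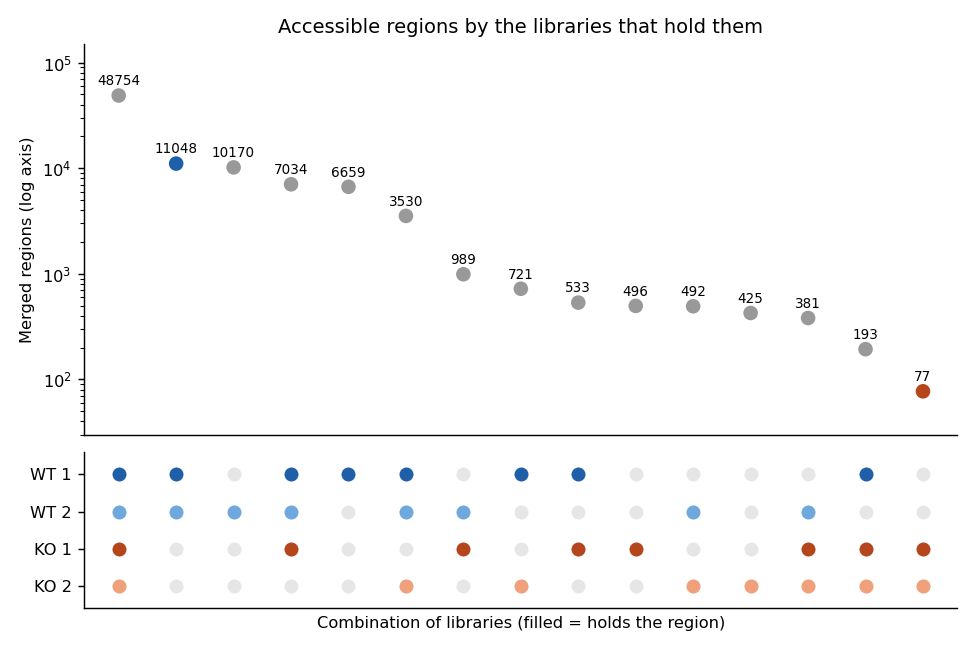
Merged regions (points, log axis) for each of the 15 combinations of the 4 libraries, with filled circles below showing which libraries hold them. The blue point is the WT-only set (11048), the dark orange point the KO-only set (77), and grey points are all other combinations, led by the 48754 regions held by all 4.

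WT-only regions were narrow and distal and, with all peaks, of low rank. They spanned a median of 234 bp, against 734 bp for shared regions and 357 bp for KO-only regions (245.5, 771 and 480 bp at equal numbers). Their peaks ranked at a median percentile of 25.9 of the fold enrichments in WT 1 and 28.6 in WT 2, while shared regions ranked at 68.1 and 69.4. KO-only peaks ranked lower still, at 13.6 in KO 1 and 12.5 in KO 2. At equal numbers WT-only regions ranked at 45.7 and 50.4, and KO-only regions at 12.2 and 13.4. The fold and the −log10 q of each peak are the authors' own values and serve here to rank or filter peaks within a list.

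Few group-only regions lay at promoters. Of 10687 WT-only regions on chromosomes with starts, 203 were within 1 kb of a start (1.90%, Wilson 95% interval 1.66% to 2.18%), against 12.6% of all regions and 21.9% of shared regions. None of 75 KO-only regions was that close (upper limit 4.87%). The median distance to a start was 36.8 kb for WT-only, 71.6 kb for KO-only and 25.5 kb for shared regions. The table holds a start for 17274 of 21631 protein-coding genes, so these distances are upper limits, and intervals over regions cover counting error only. At equal numbers of peaks the groups parted: 1.28% of WT-only regions (38 of 2965) and 9.27% of KO-only regions (270 of 2913) were within 1 kb of a start, against 15.4% of all regions. Gene bodies held 59.3% of WT-only, 49.4% of KO-only and 62.7% of shared regions.

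**Figure D2:**
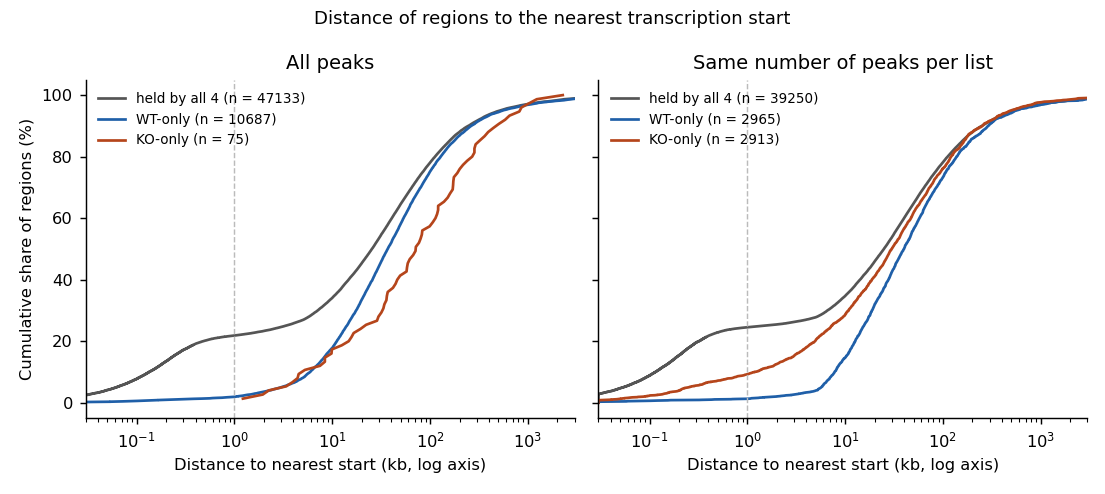
Cumulative share of regions (%) by distance from the region's middle to the nearest RefSeq start (kb, log axis), with all peaks on the left and the same number per list on the right. Grey is held by all 4, blue WT-only and orange KO-only, and the dashed line marks 1 kb. With all peaks both group-only curves stay under 2% at 1 kb. At equal numbers the KO-only curve reaches 9.27% there and the WT-only curve 1.28%.

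By chromosome the WT-only share ran from 10.3% on X to 13.7% on chromosome 8. Of the 77 KO-only regions chromosome 14 held 11 (14.3%) beside 4.09% of all regions, and X held none. At equal numbers 4.14% of the regions on chromosome 14 were KO-only, beside 4.16% over all chromosomes. With so few regions no test was made.

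Of the 10 best-ranked WT-only regions, 9 lay 10 kb or more from any start in the table, and the one in Sncaip is on chromosome 18, where the table has none. By mean rank of fold, among regions WT-only both with all peaks and at equal numbers, the first was in Ina, which encodes the neurofilament protein internexin alpha (chr19:47024917-47025521, 442 bp in WT 1 and 598 bp in WT 2, fold 18.9 and 19.9). The next were a site near Tomm7, a subunit of the mitochondrial import channel (131 and 126 bp, fold 21.2 and 18.8), and one inside Fhit, a dinucleoside hydrolase gene (380 and 620 bp, fold 16.5 and 19.4). Efl1, Sncaip, Gid4, Mllt3, Faf1, Dipk1a and Sap18 completed the 10, with folds from 13.3 to 18.1. Both F1 hCG libraries, from mice with intact Pgr, held all 10 of these regions.

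The best-ranked KO-only regions had lower ranks. Their first was near Amer2, an APC-binding protein gene (chr14:60435674-60435961, 288 bp in KO 1 and 240 bp in KO 2, fold 14.9 and 5.72). Near Fgf6, a fibroblast growth factor, the region covered 365 and 526 bp (fold 7.34 and 9.61). Umad1, Spata13, Stimate, Slitrk5, Tenm3, Memo1, Cacna2d3 and Arhgap5 followed. Of the 10, 5 were on chromosome 14 (Amer2, Spata13, Stimate, Slitrk5 and Cacna2d3), and 5 were held by both F1 hCG libraries. Mean rank percentiles ran from 33.1 to 60.3, against 89.4 to 98.5 for the 10 WT-only regions.

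The F1 hCG libraries held WT-only regions less often than other WT regions. Both held 3469 of the 11048 WT-only regions (31.4%, Wilson 95% interval 30.5% to 32.3%), 15 of the 77 KO-only regions (19.5%, 12.2% to 29.7%) and 85.2% of the regions held by both WT and 1 or both KO libraries. The difference stood within all 5 bands of WT fold rank. In the lowest ranks (percentiles 0 to 20) the shares were 25.6% of WT-only and 60.1% of the others, in the middle ranks (40 to 60) 38.8% and 81.0%, and in the highest (80 to 100) 90.2% of 41 and 99.2% of 15676. The other WT regions were defined by a peak in 1 or both KO lists too, so their higher share was largely built in. Bands of WT rank do not remove this. The F1 lists, of 65567 and 62327 intervals, were also shorter than both WT lists. The F1 mice differ from the Pgr mice in strain, so strain and genotype cannot be told apart in this comparison. Leaving out each library, F1 libraries included, gave 21.5% to 43.9% for WT-only regions. For KO-only regions the share was 41.5% without WT 2, where it was above the 21.5% of WT-only regions, and 6.38% without KO 1.

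Over genes, WT-only regions were common and KO-only regions rare. With a gene taken as its body and 10 kb on each side, 17341 genes had a region, 5880 of them (33.9%) had a WT-only region, 56 had a KO-only region, and no gene had 2 KO-only regions. Zbtb16, which encodes the transcriptional repressor PLZF and responds to steroid hormones, Rbfox1, Foxp1 and Nav2 had 12 WT-only regions each. These were 46.2% of the 26 regions at Zbtb16, but 24.5% of 49 at Rbfox1, 18.2% of 66 at Foxp1 and 17.9% of 67 at Nav2. Ttc7b, Pard3, Frmd5 and Sik3 had 11 each, and Dip2c, Bmper, Mast4 and Sox5 10 each. The highest WT-only shares among genes with 8 or more regions were 6 of 8 at Scn4a, 6 of 9 at Sparcl1, 5 of 8 at Tmem50b, and 5 of 9 at Psme4 and Syt12.

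At equal numbers of peaks, where 4.24% of all regions were WT-only and 4.16% KO-only, these genes fell into different patterns. Zbtb16 and Pard3, a cell polarity gene, kept 7 WT-only regions each, with 1 KO-only region each, out of 17 and 39 regions. Rbfox1 had 5 WT-only and 0 KO-only of 40, Dip2c 5 and 3 of 25, and Nav2 3 and 1 of 41. Foxp1 had 1 and 3 of 46, Ttc7b 1 and 3 of 24, Sik3 1 and 1 of 30, and Bmper 1 and 0 of 24. Among the highest shares, Sparcl1 kept 2 WT-only regions of 7, Psme4 2 of 8, Syt12 1 of 7, and Scn4a and Tmem50b 0 of 3 each. The genes with most KO-only regions in this setting were picked by that count. Frmd5 had no WT-only region and 10 KO-only regions out of 24. Runx2, which encodes a RUNX transcription factor, had 9 KO-only and 1 WT-only region out of 27. Mast4 and Sox5 had 8 KO-only and 1 WT-only region each, out of 49 and 56. Abhd2 and Bcor had 7 KO-only regions each and no WT-only region, out of 12 and 16. With all peaks none of the genes named here had a KO-only region, and all except Bcor had WT-only regions.

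Genes known to depend on PGR in the ovulating follicle had 119 regions over 13 genes, of which 26 were WT-only (21.8%, Wilson 95% interval 15.4% to 30.1%, beside 12.1% of all regions) and none was KO-only. At equal numbers 9 of 72 were WT-only (12.5%, beside 4.24% of all regions) and 5 KO-only (6.94%, beside 4.16%). Zbtb16 alone had 12 of the 26, and without it the share was 15.1% (14 of 93, 9.18% to 23.7%) with all peaks and 3.64% (2 of 55) at equal numbers. Without WT 1 the share was 44.4%, beside 25.1% of all regions, and without WT 2 33.0%, beside 21.8%. The regions were counted in the gene bodies and 10 kb flanks, where regions overlapping or neighbouring genes are counted too. Regions of a library are not replicates, so the intervals of the list shares are no test against all regions.

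At Zbtb16, the 7 regions that were WT-only in both settings lay between chr9:48685801 and chr9:48817826, inside the gene. The first by coordinate covered 276 bp in WT 1 and 378 bp in WT 2 (fold 10.2 and 11.2), a middle one 262 and 369 bp (fold 8.65 and 12.3), and the last 332 and 398 bp (fold 10.3 and 10.8). Neither KO list had a peak at any of them, and both F1 hCG libraries held 6 of the 7. A shared region just outside the gene covered 585 and 573 bp in WT against 194 and 208 bp in KO (log2 difference in centred width 1.39 ± 0.26 SE, limma adjusted p = 0.342).

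Among the other PGR-dependent genes only 2 WT-only regions kept that state at equal numbers, 1 in Epas1 (771 and 905 bp, fold 7.09 and 7.43) and 1 in Snap25 (143 and 120 bp, fold 8.87 and 7.54). Adamts1, a protease that cleaves the matrix proteoglycan versican, had 2 WT-only regions of 4, with folds of 2.38 to 3.31 and no call at equal numbers. Vcan, which encodes versican, had 4 of 18, Epas1, which encodes the hypoxia factor HIF2A, 3 of 17, Ctsl, which encodes the protease cathepsin L, 2 of 7, Snap25, a component of the vesicle fusion machinery, 2 of 4, and Prkg2, a cGMP-dependent kinase, 1 of 10. No WT-only region was at Edn2, Hif1a, Pparg, Adcyap1, Cxcr4 or Il6. Both F1 hCG libraries held 19 of the 26 regions, and none of the 26 was within 1 kb of a start in the table, which holds none for Zbtb16.

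Steroid-receptor response genes had the highest WT-only share of the 7 lists with all peaks, but not at equal numbers, and Zbtb16 is in this list too. Of 100 regions 26 were WT-only (26%, 18.4% to 35.4%, beside 12.1% of all regions) and none KO-only. At equal numbers 8 of 72 were WT-only (11.1%, beside 12.5% for PGR-dependent genes and 4.24% of all regions) and 4 KO-only (5.56%, beside 4.16%). Without Zbtb16 the WT-only count with all peaks was 14 of 74 (18.9%, 11.6% to 29.3%), and at equal numbers 1 of 55 (1.82%). Sgk1, a kinase induced by corticosteroids, had 4 WT-only regions of 15, Hsd11b2, which inactivates glucocorticoids, 3 of 7, and Klf9 and Fkbp5 2 each. The Sgk1 region nearest its start, 4.93 kb away, covered 503 and 504 bp in WT and was the 1 region besides those of Zbtb16 that was WT-only in both settings.

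Transcription factors and coregulators listed as possible PGR partners had 19 WT-only regions of 210 (9.05%, 5.87% to 13.7%, beside 12.1% of all regions), and 1 KO-only region, at Gata4. At equal numbers 4 of 155 were WT-only (2.58%, beside 4.24% of all regions) and 26 KO-only (16.8%, beside 4.16%). Runx2 accounted for 9 of these 26, Junb for 3, and Runx1, Nr5a1, Cebpb, Nrip1 and Ncoa1 for 2 each. Jun, Fosl2, Nr5a2, Gata6 and Ncoa2 had none. Of the 6 steroid hormone receptor genes, Pgr, Esr1 and Esr2 had 2 WT-only regions each and Nr3c2 had 1, out of 64 regions in all (10.9%, 5.40% to 20.9%, beside 12.1% of all regions), while Nr3c1 had none. At equal numbers these genes had 1 WT-only and 3 KO-only regions of 43 (2.33% and 6.98%, beside 4.24% and 4.16%).

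Genes of the ovulatory matrix and its proteases had 16 WT-only of 100 regions (16.0%, 10.1% to 24.4%, beside 12.1% of all regions), with the 4 at Vcan followed by 3 at Adamts9. Of the 2 at Tnfaip6, which encodes the hyaluronan-linking protein of the cumulus matrix, 1 was 0.888 kb from its start (137 bp in WT 1 and 207 bp in WT 2). At equal numbers 2 were WT-only and 3 KO-only of 69 (2.90% and 4.35%), near the 4.24% and 4.16% of all regions. Has2, Ptx3 and Ptgs2, the other matrix and prostaglandin genes of the cumulus, had no group-only region in either setting. Luteinisation genes had 10 of 102 (9.80%, 5.41% to 17.1%, beside 12.1% of all regions), 4 of them at Fshr and 3 at Scarb1, and none at Star, Cyp11a1, Hsd3b1 or Lhcgr. With all peaks none of the 102 was KO-only. At equal numbers luteinisation genes had 1 WT-only and 10 KO-only regions of 79 (1.27% and 12.7%, beside 4.24% and 4.16% of all regions). Vascular genes had 6 WT-only of 38 regions (15.8%, 7.44% to 30.4%, beside 12.1% of all regions), 2 of them at Kdr, the main receptor for VEGF. At equal numbers Kdr had none. There 2 of 28 were WT-only (7.14%, beside 4.24% of all regions), 1 at Ednra and 1 at Cxcl12. No region was KO-only (0%, beside 4.16%).

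**Figure D3:**
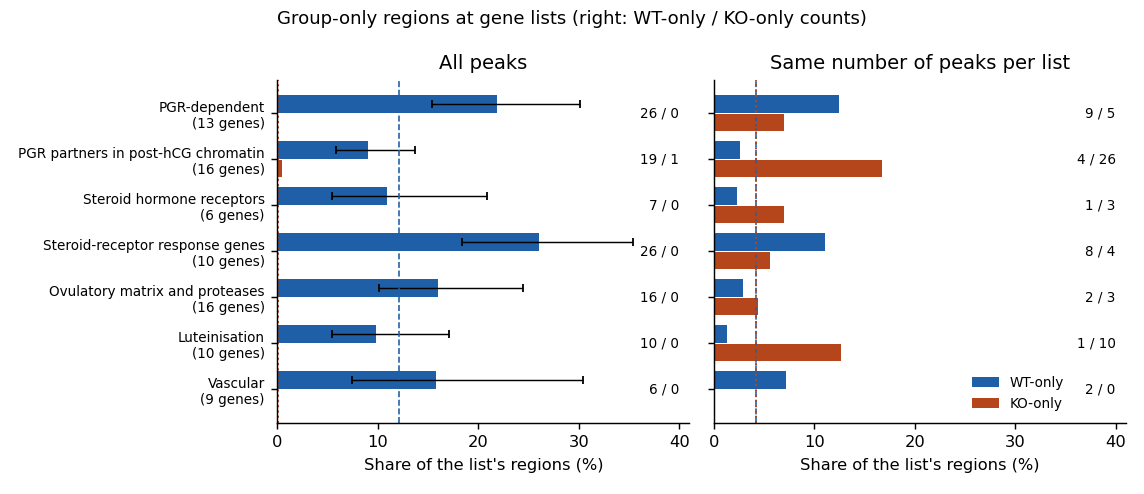
Share of the regions at each gene list (%) that were WT-only (blue) or KO-only (orange), with all peaks on the left and the same number per list on the right. Whiskers on the left are Wilson 95% intervals of the WT-only share, vertical lines the shares over all regions (blue WT-only, orange KO-only), and the figures at the right edge of each panel the WT-only and KO-only counts. PGR-dependent and steroid-response genes stand at 21.8% and 26% WT-only on the left. PGR partners and luteinisation genes have more KO-only than WT-only regions on the right (26 to 4 and 10 to 1). On the left, with all peaks, they have 1 and 0 KO-only regions.

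Promoters in WT-only regions were few and stood between those in shared regions and those in no region in GC content. WT-only regions overlapped 130 promoter windows (250 bases before to 50 after a start) of 123 genes, and KO-only regions none. Motifs were searched on both strands. The hormone receptor arm TGTTCT was in 20.8% of these windows, 16.3% of all 21045 windows, 10.6% of windows in shared regions and 24.8% of windows in no region. The full palindrome (AGAACA and TGTTCT 3 bases apart, with up to 2 mismatches, so that it can overlap a match of the arm) was in 3 of the 130 (2.31%), beside 1.59% of all windows. The AP-1 motif TGANTCA was in 11.5% and 7.04%, the RUNX motif TGTGGT in 16.9% and 14.7%, the GATA motif AGATAA in 6.15% and 9.68%, and the CRE TGACGTCA in 0.769% and 2.26%. In windows of shared regions and of no region, AP-1 was in 4.47% and 10.7% and RUNX in 10.95% and 20.6%. There GATA was in 5.37% and 16.2%, the CRE in 3.28% and 0.748%, and the palindrome in 0.904% and 2.61%. The NR5A motif TCAAGGTCA was in 1 window of the 130 and in 0.337% of all. Windows in WT-only regions had a median GC content of 55.2%, against 62.3% in shared regions and 47.7% in no region.

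The promoters printed above show the range. That of Raet1e, a stress-induced ligand of the NKG2D receptor, lay in a region of 159 bp in WT 1 and 125 bp in WT 2 (fold 14.9 and 12.4) and had no match to any motif searched. The Cfap97d2 region covered 196 and 153 bp (fold 13.3 and 8.53), and the promoter's single TGTTCT, 237 bases before the start, lay outside it. Kcnip3, a calcium-binding channel partner, had TGACTCA 122 bases before its start, in a region of 500 and 281 bp (fold 9.28 and 9.42), and the wider gene had 5 WT-only of 10 regions. No match to the motifs searched was in the Pgr or Jag2 window before the start, and Esr2 had a single TGTGGT 78 bases before its start. A match describes the letters only.

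No width difference of a shared region passed a test over all of them. In limma on log2 covered bases, centred on each library's median, none of 48754 regions passed an adjusted p of 0.05 in either direction (percent called 0 and 0; lowest adjusted p 0.293), while 3664 (7.51%) had an unadjusted p under 0.05, 1959 of them wider in WT and 1705 wider in KO. The SD of the log2 width difference was 0.36 between the single libraries WT 1 and WT 2, 0.46 between KO 1 and KO 2, and 0.34 between the means of the groups. Means of 2 libraries vary less than single libraries, so the last SD cannot be set directly against the others. Without WT 1 or WT 2, in fits where the lone library is assumed to vary like the KO pair, 127 and 230 regions passed as wider in WT and 171 and 471 as wider in KO. Without KO 1 or KO 2 none passed.

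As a description, regions were also counted whose 2 WT widths were both at least 1.5 times both KO widths after centring, or the reverse, a rule chosen after the data were seen. It held for 676 regions wider in WT (1.39%) and 379 wider in KO (0.777%). Which set was larger depended on the scaling: quantile normalization gave 445 and 496, and no centring 979 and 247. Without 1 library the counts ran from 1485 (without WT 1) to 3733 (without KO 1) and from 815 (without WT 1) to 1535 (without WT 2). Promoters were scarce in both sets, with 2.89% and 4.74% within 1 kb of a start, beside 21.9% of all shared regions. Per distance class, 0.184% of shared regions within 1 kb of a start were wider in WT by this rule, 1.44% at 1 to 10 kb, 1.97% at 10 to 100 kb and 1.42% beyond 100 kb. For wider in KO the shares were 0.165%, 0.867%, 0.825% and 1.17%.

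The regions of lowest p that were wider in WT included the promoter of Jag2, a Notch ligand gene (chr12:112928527-112930332). It covered 1799 bp in WT 1, 1616 bp in WT 2, 696 bp in KO 1 and 643 bp in KO 2 (log2 difference 1.21 ± 0.13 SE, limma adjusted p = 0.293). A site 20.1 kb from the Ctsl start covered 1060 and 1143 bp in WT and 421 and 280 bp in KO. In Tmem273 a region covered 1037 and 955 bp against 249 and 212 bp. Sites at Anapc16, a subunit of the anaphase-promoting complex (829 and 905 bp against 163 and 137 bp, and 1274 and 992 bp against 429 and 322 bp), and at Arhgap31, Baalc, Pard3, Zfp362 and Klhl2 made up the 10. The groups did not overlap at any of these 10, since low p chose them.

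Wider in KO, the region of lowest p was in Bdp1, which encodes a subunit of the RNA polymerase III factor TFIIIB. It covered 200 and 188 bp in WT against 1098 and 1081 bp in KO (log2 difference -2.63 ± 0.21 SE, limma adjusted p = 0.293). Gbe1, the glycogen branching enzyme gene, followed with 436 and 473 bp against 1313 and 1205 bp. Spock3, Lpp, Atp8b4, Jrkl, Dph6, Tgif1, Tjp1 and Cnot6 completed the 10. Tgif1, which encodes a homeobox repressor of TGF-beta and retinoid signalling, showed both directions at neighbouring regions. The region 0.583 kb from a Tgif1 start covered 196 and 240 bp in WT and 872 and 699 bp in KO. Chosen after its values were seen, the next region of the same gene (chr17:70848946-70850070) covered 1017 and 894 bp in WT and 562 and 309 bp in KO, and the 2 after that, at 1271 to 1499 bp and 960 to 1219 bp, did not meet the rule.

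**Figure D4:**
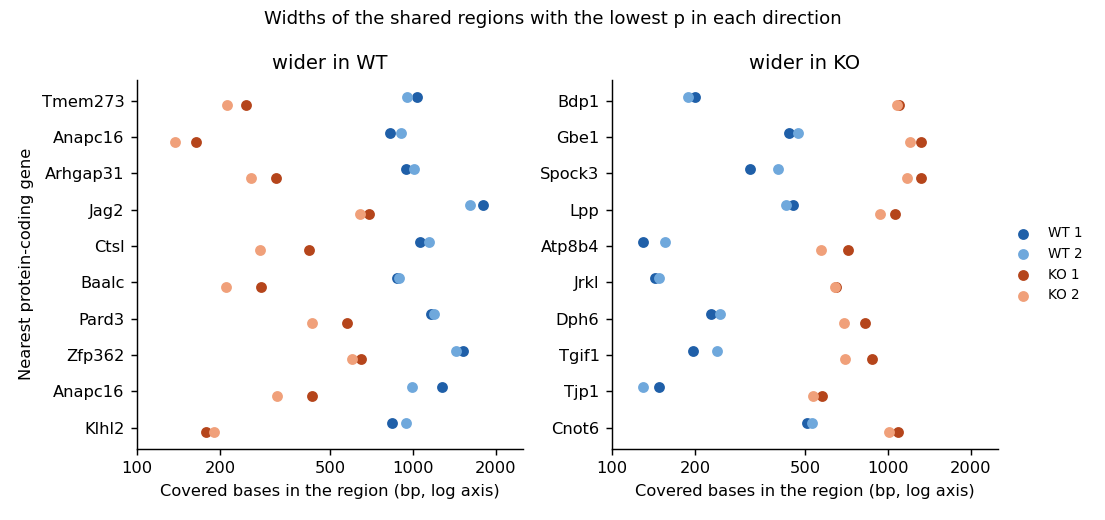
Covered bases (bp, log axis) of the 10 shared regions with the lowest p in each direction, 1 point per library (blue WT 1 and WT 2, orange KO 1 and KO 2), labelled by the nearest protein-coding gene. In every row the points of a group lie closer to each other than to those of the other group, as the choice by low p implies.

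At the gene lists few shared regions met the rule of 1.5 times, which 1.39% of all shared regions met as wider in WT and 0.777% as wider in KO. PGR-dependent genes had 2 of 47, at Pparg, the lipid-sensing nuclear receptor (659 and 582 bp in WT, 335 and 164 bp in KO), and the Zbtb16 site above. Scarb1, the HDL receptor that supplies cholesterol, had 1 wider in WT (528 and 444 bp against 199 and 243 bp). In the other direction Esr2, which encodes estrogen receptor beta, had a site 29.0 kb from its start of 448 and 490 bp in WT and 972 and 899 bp in KO (log2 difference -1.14 ± 0.15 SE, limma adjusted p = 0.293). Its promoter peak was also longer in both KO libraries, at 1249 and 1237 bp against 843 and 942 bp (adjusted p = 0.393, limma), without meeting the rule. PGR partners, matrix genes and vascular genes had no region that met the rule. At Vcan, beside its 4 WT-only regions, the 3 shared regions had log2 differences from -0.62 to -0.14, toward wider in KO. One of these covered 860 and 811 bp in WT and 1179 and 1102 bp in KO (adjusted p = 0.35, limma).

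Around Pgr the shared regions were wider in KO than elsewhere, a pattern noticed in these data and given as a description. The 49 shared regions within 2 Mb of the Pgr start had a median log2 difference (WT minus KO) of -0.16, beside -0.02 over all shared regions. Of these, 39 (79.6%) were below the overall median, 22 had both KO widths above both WT widths after centring, and 3 had the reverse. Over all shared regions these patterns were nearly balanced, at 8780 and 8896. The median was -0.23 within 1 Mb (29 regions), -0.11 within 5 Mb (95), -0.07 within 10 Mb (163) and -0.05 within 20 Mb (360). Chromosome 9 as a whole stood at -0.02. Of 884 stretches of 2 Mb with 20 or more shared regions, the one with Pgr (8000001 to 10000000 on chromosome 9, 27 regions) had the lowest median, -0.31, followed by 2 on chromosomes 16 and 6 at -0.31 and -0.27. The middle 95% of stretches ran from -0.13 to 0.11. Leaving out each library in turn gave medians from -0.25 to -0.12 within 2 Mb of Pgr. Without centring the median was -0.02 there and 0.12 over all shared regions, the same gap of -0.14 as with centring, which shifts all regions alike. With quantile normalization it was -0.23 there and -0.01 over all, a gap of -0.22.

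Genes in this neighbourhood followed the pattern to different degrees. A region 167 kb upstream of the Pgr start, outside genes and nearest to the body of Trpc6, a cation channel gene, covered 537 and 577 bp in WT and 1056 and 915 bp in KO. A site in Cntn5, an adhesion protein gene, covered 189 and 257 bp against 344 and 466 bp. In Arhgap42, a GTPase-activating protein gene, a region covered 324 and 360 bp against 422 and 433 bp, whereas another covered 392 and 404 bp in WT and 366 and 166 bp in KO. The Pgr promoter was among the 3 regions with both WT widths larger. WT-only regions were 8 of the 101 regions within 2 Mb (7.92%), beside 12.2% on chromosome 9.

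**Figure D5:**
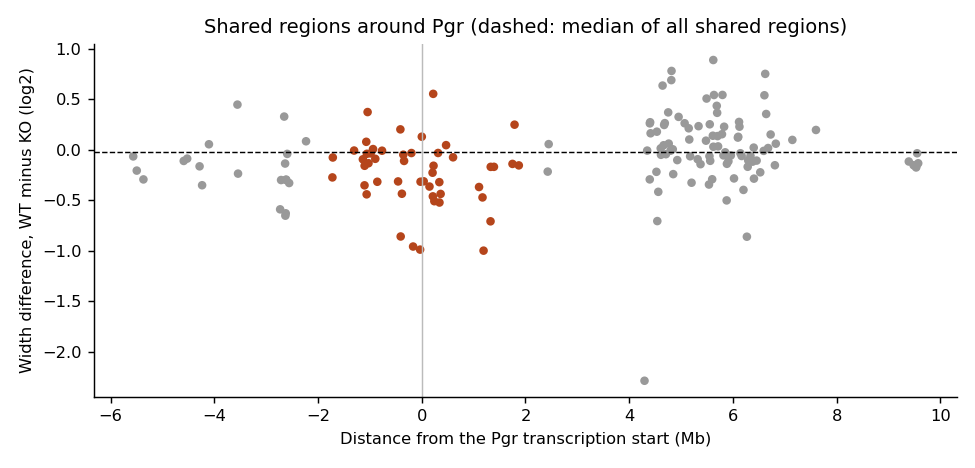
Width difference (log2, WT minus KO, centred) of shared regions by distance from the Pgr start (Mb), 1 point per region within 10 Mb of it, orange within 2 Mb. The dashed line is the median of all shared regions (-0.02). Of the 49 orange points 39 lie below it.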

How the data were processed

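The members, gene lists and tests were chosen with earlier results of these data known. Peaks were called by the authors with MACS2 on reads aligned with Bowtie2 to mm10, per the submitters' processing notes, with versions, thresholds and pooling not given in the sources used here. The deposited lists give interval starts and ends and, for each summit, a fold enrichment (a ratio) and a −log10 q (lowest value 10 in each list). They hold no counts, so no count test was made. Rows with the same interval were reduced to 1, keeping the best fold and −log10 q, and peaks on chromosome Y and unplaced contigs (10 to 15 per PR library) were left out. Genes came from RefSeq (GRCm38.p6, 21631 protein-coding), starts and sequences from its promoter table (17274 genes, none on chromosome 18, so 3092 regions have no distance). A region is named by the gene it lies in, or the nearest. Named regions are the 10 of best mean fold rank per group-only set and the 10 of lowest limma p per direction. Named genes are those with most WT-only regions, the highest WT-only shares, the most KO-only regions, and all list members. Sequence motifs within peaks were not analysed here. Widths were tested with limma 3.58.1 (R 4.3.3, trend, robust, Benjamini-Hochberg at 0.05), a fit that was also run on simulated widths with known changes. The other steps ran in Python 3.11.15, where only the number of merged regions was checked, against bedtools 2.31.1 on the real intervals. Exact permutation tests used SciPy 1.17.1. Replicates are pools of mice labelled as biological replicates, and the labels do not say that a number marks a shared litter or day. Alternatives covered the number of peaks, the peak threshold, the overlap rule, the distance, the centring and each library left out. Some list members are counted in their lists and not reported here by name.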

Additional observations from a re-analysis of the deposited data

How the results depend on the processing

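Over 152 alternatives of 18 results, each taken by itself, 91 stayed within the limit set for the result and 61 moved. The order of WT against KO turned in these pairs: shares near a start at equal numbers, with the 20000 best peaks, with a limit of 5 kb and without WT 1 or KO 2 (where they were 1.85% and 2.19%, and 1.96% and 2.19%), split regions at equal numbers and without KO 1, PGR-dependent genes with the 20000 best peaks, shares held by the F1 hCG libraries without WT 2 (and without WT 1 a tie, 24.55% for both sets), and the rule of 1.5 times under quantile normalization. Leaving out a library loosens the rules that need all 4, so counts move by construction. Depth is unknown, which limits every absent peak.

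With the same number of peaks per list by fold, WT-only and KO-only regions numbered 3066 and 3007, with 1.28% and 9.27% near a start, 12.5% and 6.94% at PGR-dependent genes and 40.4% and 30.5% held by both F1 hCG libraries, and 49 regions were split in both WT libraries alone against 71 in both KO libraries alone. With the 20000 best peaks per list the counts were 617 and 546, with 5.17% and 21.8% near a start and 0% and 5.26% at PGR-dependent genes (0 and 1 of 19 regions, beside 2.23% and 1.98% of all regions). With 5 kb as the limit, the shares near a start were 8.09% (WT-only) and 9.33% (KO-only). A −log10 q of 20 or more left 41 KO-only regions, and asking that a held region be covered to 50% gave 317. Of the alternatives chosen after seeing the data, equal numbers by −log10 q gave 1912 and 1719, either gene end in place of the start gave 4.70% of WT-only regions, and the rule of 1.5 times gave 445 regions wider in WT and 496 wider in KO under quantile normalization, and 979 and 247 with no centring.

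Leaving out 1 library at a time, the ranges were 14609 to 21381 WT-only and 277 to 574 KO-only regions; 1.85% to 2.40% and 1.13% to 2.19% near a start; 24.4% to 44.4% and 0% to 1.68% at PGR-dependent genes; 21.5% to 43.9% and 6.38% to 41.5% held by both F1 hCG libraries. The difference in intervals ran from 22884.5 to 27060.5, in covered length from 4.87 to 12.1 Mb and in median width from -142.5 to -46.5 bp. Split regions ran from 91 to 409 in KO and from 311 to 999 in WT. Width calls by limma ran from 0 to 230 in WT and 0 to 471 in KO, and by the rule of 1.5 times from 1485 to 3733 and 815 to 1535.

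With the replicate number as a block, limma called 860 shared regions wider in WT and 796 wider in KO, on 1 residual degree of freedom. Same-numbered libraries did not deviate together (correlation -0.08, 2 pairs), so the samples share only a number and no paired reading is made. For intervals, covered length and median width the replicate block cannot change a difference of means in this balanced design, so those 3 unchanged values, counted among the 91, say nothing of stability.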
